A study of Mustela putorius furo and Mus musculus with 4 samples.

Results

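Lysosomal genes were compared between cultured ferret and mouse astrocytes. The list held 48 genes for lysosomal enzymes, their cofactors and the proteins of the lysosomal membrane, chosen by symbol. Of these, 41 were found under the same symbol in both species, among 13373 shared symbols, and 3 of the 41 (Ctss, Cd68 and Laptm5), which phagocytes express strongly, were set aside and are given separately. The main list therefore held 38 genes. The other 7 (Ctsd, Ctsl, Hexa, Ids, Man2b1, Cln3 and Mcoln1) were not analysed here in the ferret.

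The ferret astrocytes (2 libraries) came from cerebral cortices of ferrets at postnatal day 1, and the mouse astrocytes (2 libraries) from cortices of ICR mice at postnatal day 1 to 3. Both were grown as mixed glia with serum for 14 days and shaken to remove other glia. They were replated with serum and then moved to medium without it before RNA was taken. The absence of serum at harvest and the growth factor added in its place were thus common to both groups. According to the methods, the cells of a ferret pup were spread over several flasks and those of several mouse pups were pooled in a flask, and whether the duplicates came from separate cultures is not given in the sources used here. The p-values below therefore measure the spread between these libraries, which may be technical, and species, genome annotation and culture cannot be told apart.

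Values are FPKM (fragment counts divided by exon length and by the mapped fragments of the library) as the authors deposited them, from polyA-selected RNA. FPKM is divided by the exon length of each species' own gene model, so a shorter or less complete model changes the value. These values do not give the sequencing depth. Species were compared by limma on log2(FPKM + 1) over the 10204 genes whose mean reached 1 FPKM in either species, a scale on which differences of low genes are understated. A gene was called when its Benjamini-Hochberg adjusted p was under 0.05 and its log2 difference exceeded 1 in size. All 41 lysosomal genes passed the filter, 3 of them (Ctss, Laptm5 and Acp5) through the mouse values alone. Gfap, the intermediate filament that marks astrocytes, stood at 1481 and 1522 FPKM in ferret replicates 1 and 2 and at 1429 and 1546 in the mouse replicates, and did not pass the test. Of the 11 astrocyte markers examined, 1 was called higher and 7 lower in the ferret, against 13.1% and 30.1% of all genes tested. Slc1a2, a glutamate transporter of astrocytes counted among the 7, was at 0.133 and 0.178 FPKM in the ferret against 47.1 and 51.8 in the mouse. It entered through its mouse values alone and therefore could only be lower in the ferret.

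Lysosomes are the acidic compartments in which proteins, glycans, lipids and glycogen taken up or delivered by autophagy are broken down. Most of their soluble enzymes receive a mannose 6-phosphate tag in the Golgi, travel on tag receptors and are matured by the low pH that the proton pump maintains, while heavily glycosylated membrane proteins line the compartment and TFEB-type transcription factors drive many of these genes together. In the brain, astrocytes use lysosomes to clear synaptic and myelin debris, and loss of single enzymes causes storage diseases with prominent white matter or neuronal damage.

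Of the 38 lysosomal genes, 4 were called higher in ferret astrocytes (Arsa, Neu1, Sgsh and Ctsk) and 15 were called lower (Lamp1, Laptm4a, Ctsc, Ctsh, Ctsz, Lgmn, Tpp1, Gaa, Fuca1, Smpd1, Galc, Acp2, Acp5, Tfeb and Grn). These were 10.5% and 39.5% of the list, against 13.1% and 30.1% of all genes tested. Acp5 entered through its mouse values alone and therefore had to differ, and without it 4 of 37 genes (10.8%) were called higher and 14 (37.8%) lower. At the adjusted p alone, without the limit on size, 9 were higher and 25 lower, or 23.7% and 65.8% of the list against 32.4% and 56.2% of all genes tested. The median log2 difference of the 38 genes was -0.75 and that of all tested genes -0.35. The largest adjusted p by limma was 1.19e-05 among the genes called higher and 2.2e-07 among those called lower, with standard errors between 0.056 and 0.12 on the log2 scale. For a single gene, the smallest p that exact permutation of 2 against 2 allows is 0.333.

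The balance depended on the scaling between species. After the libraries were set to equal summed FPKM over the shared symbols (rescaling), or after quantile normalization, the median of all tested genes moved from -0.35 to 0.00 and 0.08, and 7 lysosomal genes were called higher and 10 lower under either scaling. These were 18.4% and 26.3% of the list, against 19.3% and 21.7% of all tested genes after rescaling and 20.6% and 20.4% after quantile normalization, so that the share called higher was near that of all genes. Arsa, Neu1, Sgsh and Ctsk were joined by Idua, Gusb and Gla on the higher side. Relative to the median of all tested genes, the list median lay at -0.40 on the log2 scale with FPKM as deposited, at -0.36 after rescaling and at -0.47 after quantile normalization.

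**Figure D1:**
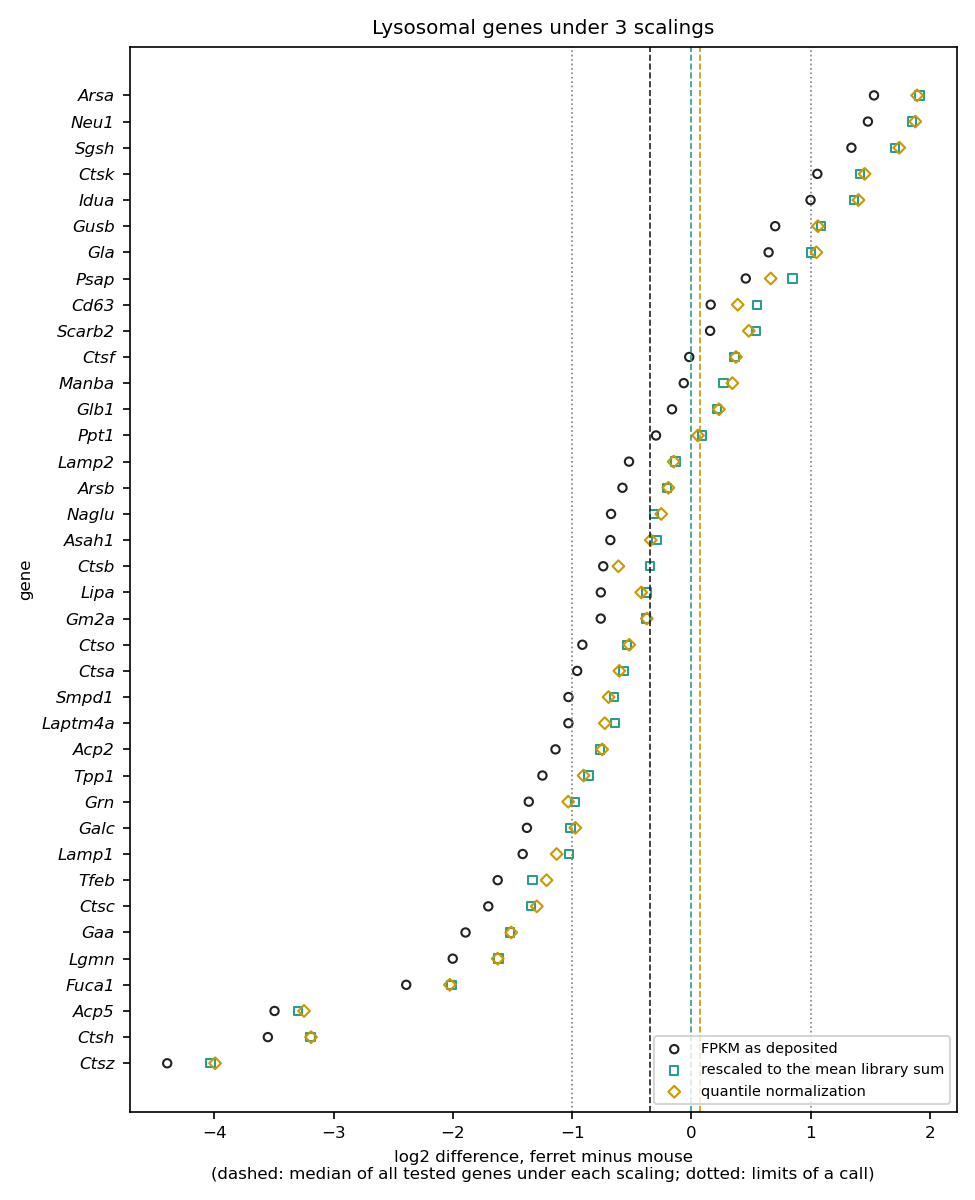
Log2 difference (ferret minus mouse) of the 38 lysosomal genes on the x axis, with FPKM as deposited (circles), rescaled to the mean library sum (squares) and after quantile normalization (diamonds), ordered by the first of these. Both other scalings shifted the genes towards the ferret, which took 5 genes each out of the lower calls and brought Idua, Gusb and Gla past a log2 difference of 1.

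Markers of microglia, the phagocytes of the brain, were also low in the ferret libraries. The summed level of 17 markers, none of them in the lysosomal list, was 7.97 to 10.1 FPKM in the ferret pair and 752 to 771 FPKM in the mouse libraries. Of these markers, 14 had a ferret mean under 1 FPKM and passed the filter through the mouse values alone, so their calls are not counted here. Cx3cr1 is listed at 0 in both ferret libraries, and Itgam, P2ry12, Cd53 and Cyth4 are each listed at 0 in 1 of the 2. The part of microglia or of any other cell type in the lysosomal values was not tested, and in RNA of whole cultures fewer cells of a type cannot be told apart from less RNA per cell. The paper immunostained cultures still kept in serum, unlike those taken for RNA. It reported a smaller share of microglia in ferret than in mouse cultures, and neurons in the ferret cultures alone. Markers of meningeal fibroblasts summed to 131 and 116 FPKM in the ferret against 1663 and 1646 in the mouse. Oligodendrocyte lineage markers summed to 170 and 188 FPKM against 69.1 and 69.1, and neuronal markers to 29.1 and 30.4 FPKM against 32.03 and 33.2. The neuronal sum was mostly Map2, which was not called (mean of 18.9 FPKM for ferret, 30.8 for mouse astrocytes). Of the 3 neuronal markers tested, 2 were called higher in the ferret and 0 lower, against 13.1% and 30.1% of all genes tested. These were Syt1 (mean 5.02 against 1.19 FPKM) and Nefl (5.05 against 0.115 FPKM). Nefl passed the filter through its ferret values alone and therefore could only be higher.

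The genes set aside were far lower in the ferret, Ctss and Laptm5 having entered through their mouse values alone. Ctss, a cathepsin of antigen-presenting cells, had 0.529 and 0.834 FPKM in ferret astrocytes and 112 and 99.8 in mouse astrocytes, with a log2 difference of -5.99. Laptm5, a lysosomal membrane protein of blood cells, had 0.177 and 0.225 FPKM against 49.7 and 51.3 (-5.42), and Cd68, the macrophage sialomucin, had 2.49 and 2.79 FPKM against 73.7 and 77.0 (-4.39). When 7 further genes that phagocytes or osteoclasts express strongly (Acp5, Ctsk, Ctsh, Ctsz, Ctsc, Lgmn and Grn) were also set aside, 31 genes remained, of which 3 (9.68%) were called higher and 9 (29.0%) lower, close to the 13.1% and 30.1% of all genes tested, with a median log2 difference of -0.67.

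**Figure D2:**
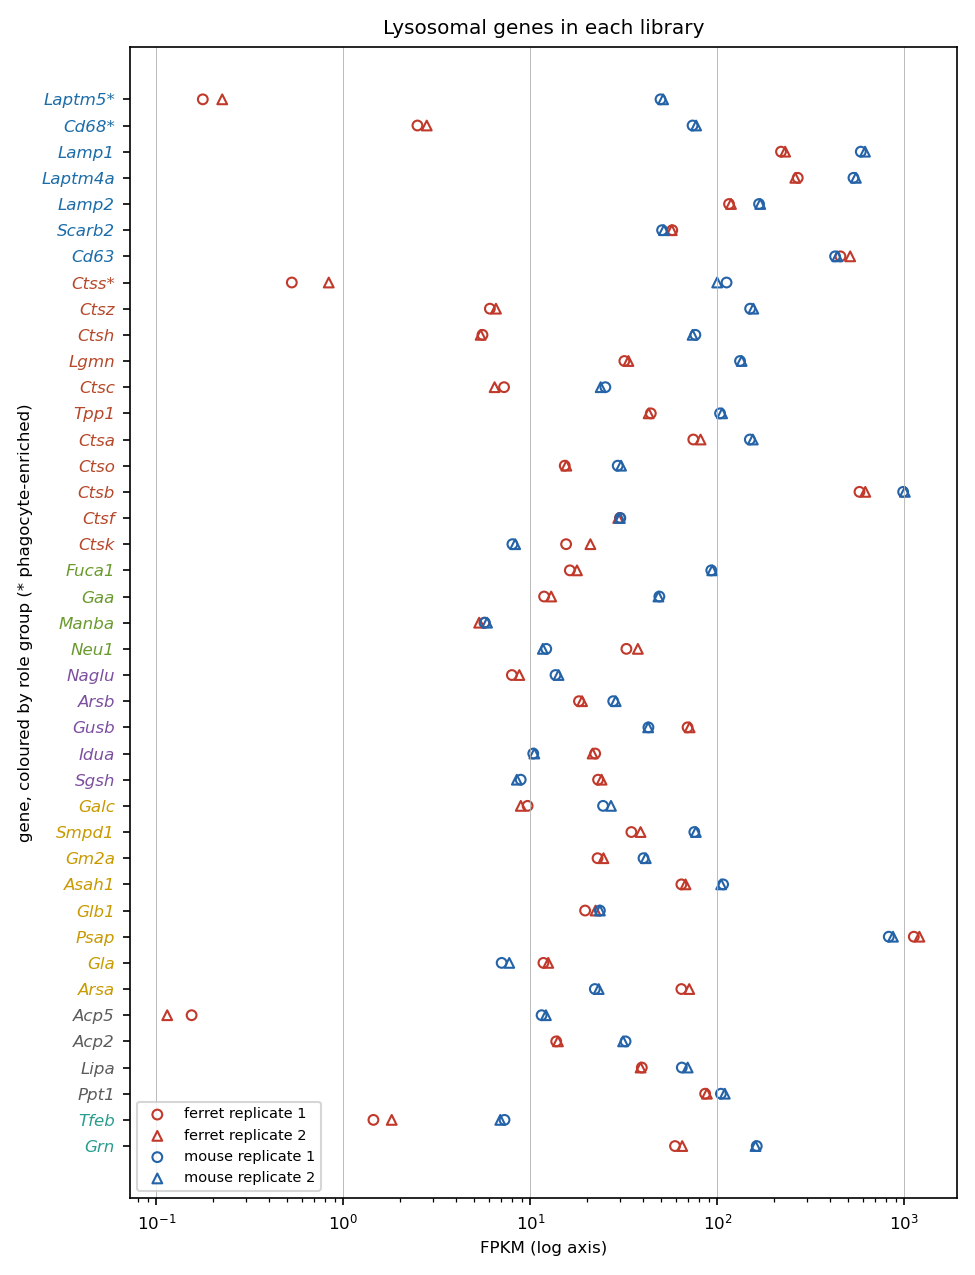
FPKM on a log axis of the 41 lysosomal genes in each of the 4 libraries (red, ferret; blue, mouse; circles, replicate 1; triangles, replicate 2), with names coloured by role and the 3 set-aside genes starred. The duplicates nearly coincide for most genes, and the ferret points lie far to the left of the mouse points for Laptm5, Cd68, Ctss, Ctsz, Ctsh and Acp5.

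Duplicates agreed closely for these genes. The median absolute log2 difference between the 2 libraries of a species over the 38 genes was 0.079 for the ferret pair and 0.0427 for the mouse pair, and the largest was 0.409 and 0.135. The 38 genes stood high within each library, at a median percentile of 81.5 among all tested genes in ferret and of 86.4 in mouse astrocytes. Across the 38 genes the mean levels of the species were correlated (Pearson r = 0.778 on the log2 scale, Spearman rho = 0.697), and over all tested genes these values were 0.679 and 0.675. Genes are not independent replicates, and these values are descriptions. Summed over the list, the genes made up 1.62% and 1.66% of the FPKM of the shared symbols in the ferret pair and 1.74% and 1.75% in the mouse pair.

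Among the 41 genes compared, the most abundant transcripts were the same 6 in both species, in a different order. Genes without a ferret value, such as Ctsd and Ctsl, are outside this order. Psap, which encodes prosaposin, the precursor of the saposins that present sphingolipids to their enzymes, led in the ferret with 1125 and 1204 FPKM against 826 and 870 in the mouse libraries. The ferret libraries were above the mouse libraries, but the log2 difference of 0.46 (standard error 0.068, limma adjusted p = 1.17e-04) stayed under the limit of a call. Ctsb, the cysteine protease cathepsin B, was the highest of the 41 genes in the mouse with 986 and 1007 FPKM and followed in the ferret with 576 and 619, a log2 difference of -0.74. Cd63, a tetraspanin of late endosomes and lysosomes, came next in the ferret at 456 and 514 FPKM and stood at 426 and 438 in the mouse. Its ferret values were the higher ones, yet the log2 difference of 0.16 (95% confidence interval 0.0020 to 0.32, not adjusted) did not pass the test, with an adjusted p of 0.0537 by limma.

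The counts for groups of genes by role, each of 2 to 10 genes, are to be read against the 13.1% of all tested genes called higher and the 30.1% called lower. The lysosomal membrane proteins held 2 of the 15 lower calls and 0 of the higher ones, over 5 genes. Lamp1, the major glycoprotein of the lysosomal membrane, had 219 and 231 FPKM in the ferret and 585 and 616 FPKM in the mouse libraries. The mouse libraries were 2.67-fold higher on average, a log2 difference of -1.41 (standard error 0.062, limma adjusted p = 1.19e-08). Mouse Lamp1 occupies bases 13159161 to 13175338 of chromosome 8 in GRCm38 (plus strand), and 9.31% of its exonic bases overlap exons of Grtp1 on the other strand. Lamp2, its paralogue and the receptor of chaperone-mediated autophagy, had 116 and 118 FPKM in ferret against 167 and 170 in mouse astrocytes. Its log2 difference of -0.52 (standard error 0.056) was under the limit. Laptm4a, a small transmembrane protein of late endosomes and lysosomes, had 269 and 261 FPKM in the ferret and 535 and 551 FPKM in the mouse, a log2 difference of -1.03. This call lay just past the limit and was lost under both other scalings, at -0.64 and -0.73. Scarb2, which carries beta-glucocerebrosidase to lysosomes, stood at 57.4 and 57.1 FPKM in the ferret and 50.6 and 51.8 in the mouse, a log2 difference of 0.16.

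Among the cathepsins and other proteases, 1 of 10 genes was called higher and 5 were called lower, and the median log2 difference was -1.10. The gap was widest for Ctsz, a carboxypeptidase also called cathepsin X, with 6.07 and 6.54 FPKM in the ferret pair and 150 and 156 FPKM in the mouse replicates. Its log2 difference was -4.40 (standard error 0.063, limma adjusted p = 1.44e-11), and the mouse mean was 24.2-fold the ferret mean. Mouse Ctsz occupies bases 174427493 to 174439039 of chromosome 2 in GRCm38 (minus strand). Within its library, Ctsz stood at a mean percentile of 42.4 of all tested genes in the ferret and 97.4 in the mouse. Ctsh, an aminopeptidase, had 5.54 and 5.42 FPKM in ferret against 76.3 and 73.7 in the mouse, or a log2 difference of -3.55 (standard error 0.061, limma adjusted p = 3.77e-11). Both genes are abundant in microglia, whose markers were low in the ferret libraries as given above. The part of these cells in the Ctsz and Ctsh values was not tested.

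Lgmn, the asparaginyl endopeptidase that processes other cathepsins, had 31.8 and 33.5 FPKM in the ferret and 132 and 135 FPKM in the mouse replicates, a log2 difference of -2.00 (standard error 0.058). Ctsc, the dipeptidyl peptidase that activates serine proteases of immune cells, had 7.23 and 6.44 FPKM in the ferret and 25.2 and 23.8 in the mouse, a log2 difference of -1.70. Tpp1, the tripeptidyl peptidase lost in a childhood form of neuronal ceroid lipofuscinosis, had 44.1 and 42.9 FPKM in the ferret and 103 and 106 in the mouse, a log2 difference of -1.25. For each of these proteases both ferret libraries were below both mouse libraries. The Tpp1 difference was -0.86 after rescaling and -0.90 after quantile normalization and was then no longer called.

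Ctsk ran the other way. Cathepsin K, the collagen-degrading protease best known from osteoclasts, had 15.5 and 20.9 FPKM in the ferret and 8.01 and 8.29 FPKM in the mouse replicates, a log2 difference of 1.06 (standard error 0.116, limma adjusted p = 1.19e-05). The 2 ferret libraries differed more for this gene than for any other of the 38, and without ferret replicate 2 the log2 difference was 0.85 and was not called. Ctsf, a cathepsin of the papain family, had 30.1 and 29.5 FPKM in the ferret and 30.3 and 30.1 in the mouse, and the values of the 2 species overlapped. It did not pass the test (log2 difference -0.02, 95% confidence interval -0.15 to 0.11, limma adjusted p = 0.780). Ctso, of the same family, had 15.3 and 15.6 FPKM against 29.3 and 30.6, a log2 difference of -0.91, and Ctsa, a carboxypeptidase, had 74.4 and 81.3 FPKM against 149 and 155, a log2 difference of -0.96. Both were under the limit, and Ctsa passed it, at -1.02, without ferret replicate 2.

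**Figure D3:**
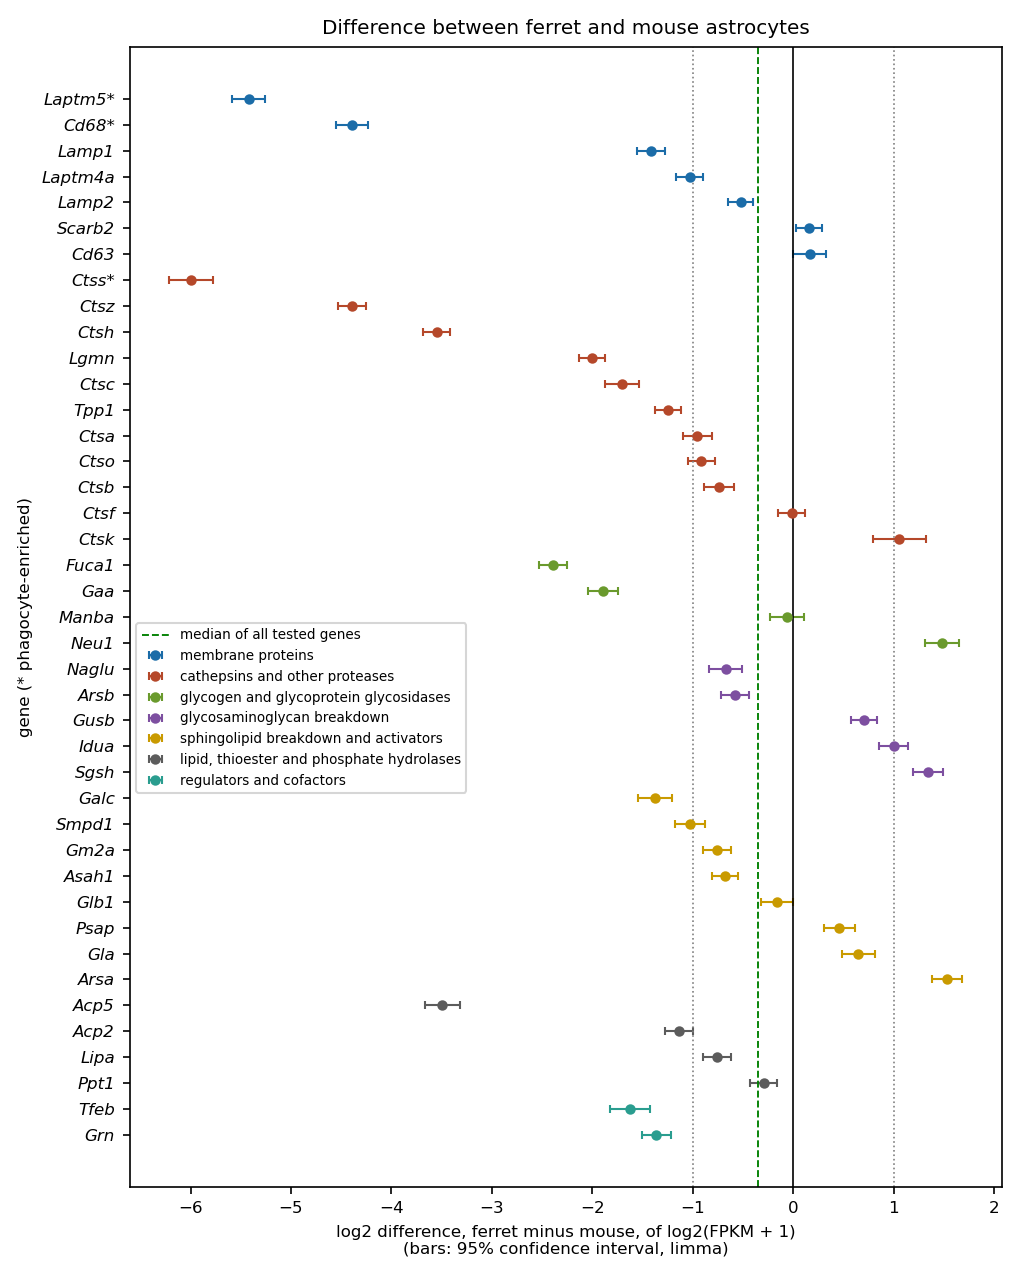
Log2 difference (ferret minus mouse) on the x axis for each of the 41 genes, with 95% confidence intervals from limma and colours for the role groups. The dotted lines mark a log2 difference of 1 in either direction and the dashed line the median of all tested genes at -0.35, and Arsa, Neu1 and Sgsh lie farthest to the right.

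The glycosidases that trim glycogen and glycoprotein sugar chains split in both directions, with 1 of 4 genes called higher and 2 called lower. Neu1, the sialidase that removes terminal sialic acids, had 32.6 and 37.6 FPKM in the ferret and 12.2 and 11.7 FPKM in the mouse libraries. The ferret values were the higher ones, by 2.95-fold on average and a log2 difference of 1.48 (standard error 0.077, limma adjusted p = 4.00e-08). Mouse Neu1 occupies bases 34931253 to 34935953 of chromosome 17 in GRCm38 (plus strand), with no exon shared with another annotated gene. Fuca1, the fucosidase that removes fucose from glycoproteins and glycolipids, had 16.3 and 17.8 FPKM in the ferret and 92.8 and 93.9 FPKM in the mouse, a log2 difference of -2.39 (standard error 0.063, limma adjusted p = 4.19e-10). Its difference was the most negative among the 31 genes left after the wider phagocyte set, and mouse Fuca1 occupies bases 135920735 to 135940311 of chromosome 4 in GRCm38 (plus strand). Gaa, the acid glucosidase that breaks down lysosomal glycogen and is deficient in Pompe disease, had 11.8 and 12.9 FPKM against 49.0 and 48.4, a log2 difference of -1.89 (standard error 0.065). Manba, a mannosidase, had 5.68 and 5.32 FPKM in the ferret and 5.71 and 5.86 in the mouse and did not pass the test (log2 difference -0.06, 95% confidence interval -0.23 to 0.10, limma adjusted p = 0.429).

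Enzymes of glycosaminoglycan breakdown were the role group with the highest median, a log2 difference of 0.70 over 5 genes, of which 1 was called higher and 0 lower. Sgsh, the sulfamidase of heparan sulfate breakdown that is lost in a Sanfilippo syndrome, had 23.0 and 24.0 FPKM in the ferret and 8.88 and 8.46 FPKM in the mouse replicates. Its log2 difference was 1.34 (standard error 0.066, limma adjusted p = 2.59e-08). Mouse Sgsh occupies bases 119343425 to 119355536 of chromosome 11 in GRCm38 (minus strand), and 21.6% of its exonic bases overlap Card14 on the other strand. Idua, the iduronidase deficient in Hurler syndrome, had 22.2 and 21.5 FPKM against 10.4 and 10.5, which placed its log2 difference of 1.00 (0.9999 before rounding) just short of a call. Gusb, the glucuronidase, had 69.3 and 71.1 FPKM against 42.8 and 42.7, a log2 difference of 0.70. For both, the ferret libraries were the higher ones, and both were called higher after rescaling, at 1.37 and 1.09.

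Naglu and Arsb were lower in the ferret at the adjusted p without reaching the limit of a call. Naglu, the glucosaminidase of heparan sulfate breakdown, had 7.96 and 8.73 FPKM in the ferret and 13.6 and 14.1 in the mouse, a log2 difference of -0.67. Arsb, the sulfatase of dermatan and chondroitin sulfate, had 18.2 and 18.9 FPKM against 27.7 and 28.6, a log2 difference of -0.58. In the mouse, 39.9% of the exonic bases of Arsb overlap provisionally named genes on the other strand. The ratio of Sgsh to Naglu within a library was thus 2.89 and 2.75 in the ferret and 0.651 and 0.598 in the mouse, and that of Idua to Arsb was 1.22 and 1.14 against 0.374 and 0.367.

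Among 8 genes for sphingolipid breakdown, 1 was called higher and 2 were called lower. Arsa, the sulfatase that starts the breakdown of the myelin lipid sulfatide and is deficient in metachromatic leukodystrophy, had 64.2 and 70.8 FPKM in the ferret and 22.1 and 23.2 FPKM in the mouse libraries. Its log2 difference of 1.53 (standard error 0.067, limma adjusted p = 1.14e-08) was the highest of the 38 genes. Mouse Arsa occupies bases 89472476 to 89477425 of chromosome 15 in GRCm38 (minus strand), and 18.8% of its exonic bases overlap a provisionally named gene on the other strand. Galc, which removes galactose from the product of that step and is deficient in Krabbe disease, had 9.66 and 8.88 FPKM in the ferret and 24.5 and 27.0 FPKM in the mouse. Its log2 difference was -1.38 (standard error 0.074, limma adjusted p = 5.14e-08), with the call lost after quantile normalization at -0.97. The ratio of Arsa to Galc within a library was therefore 6.64 and 7.96 in the ferret and 0.904 and 0.860 in the mouse.

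Smpd1, the acid sphingomyelinase, had 34.7 and 38.9 FPKM in the ferret and 75.3 and 76.7 FPKM in the mouse replicates, a log2 difference of -1.03. It lost its call without ferret replicate 1, at -0.95, and under both other scalings. Asah1, the acid ceramidase, had 64.2 and 67.6 FPKM against 107 and 105, and Gm2a, the activator of ganglioside breakdown, had 22.9 and 24.6 FPKM against 40.3 and 41.4. Their log2 differences of -0.68 and -0.76 were under the limit. Gla, the galactosidase deficient in Fabry disease, had 11.7 and 12.5 FPKM in the ferret and 7.02 and 7.71 FPKM in the mouse, a log2 difference of 0.65, and crossed the limit only narrowly after rescaling (1.00) and after quantile normalization (1.05).

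Glb1, the beta-galactosidase, had 19.6 and 22.3 FPKM in the ferret and 23.5 and 23.5 FPKM in the mouse and did not pass the test (log2 difference -0.16, 95% confidence interval -0.33 to 0.0013, limma adjusted p = 0.0578). Glb1 and Neu1 are known to reside in a complex with the product of Ctsa, which protects both from proteolysis. The transcripts of this complex stood in different proportions in the 2 species. Neu1 was at 0.439 and 0.462 of Ctsa in the ferret pair and at 0.0815 and 0.0753 in the mouse pair. Glb1 was at 0.264 and 0.274 of Ctsa in the ferret and at 0.158 and 0.152 in the mouse. These pairs and the others above were picked after their values were seen, and the ratios, which do not depend on the scaling of a library but do depend on the gene models, were not tested.

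**Figure D4:**
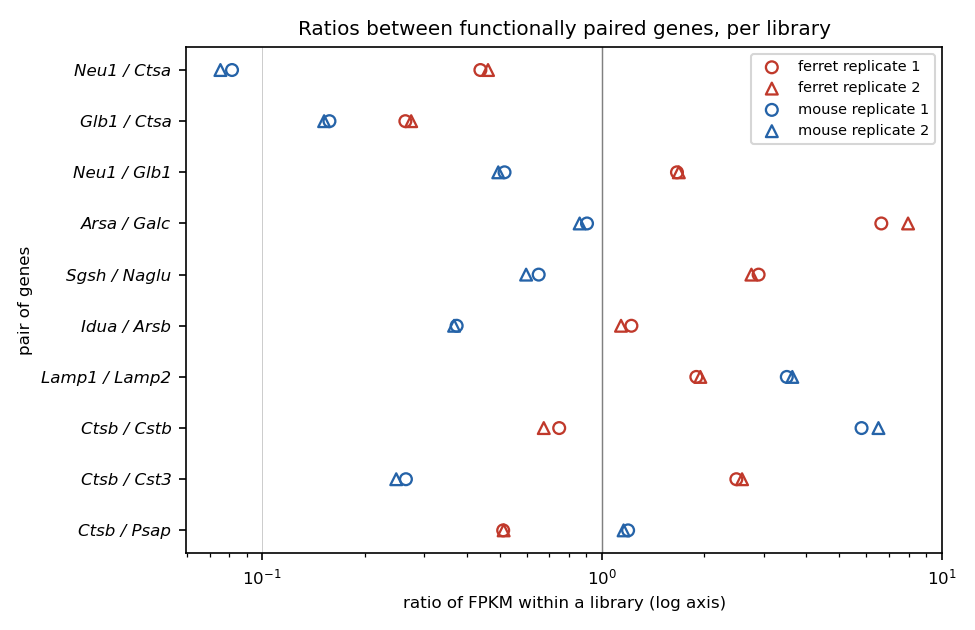
Ratio of the FPKM of paired genes within each library on a log axis (red, ferret; blue, mouse; circles, replicate 1; triangles, replicate 2). The pairs were picked with their values known. Neu1 to Ctsa stands at 0.439 and 0.462 in the ferret libraries and at 0.0815 and 0.0753 in the mouse libraries.

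The 4 hydrolases of lipids, thioesters and phosphate esters included 0 genes called higher and 2 called lower (Acp2 and Acp5). Acp5, the tartrate-resistant acid phosphatase of osteoclasts and macrophages, had 0.154 and 0.114 FPKM in the ferret and 11.5 and 12.1 FPKM in the mouse libraries. Its log2 difference was -3.50, given as a description because it entered through the mouse values alone, and its ferret level placed it at a percentile of 3.64 among all tested genes. Acp2, the housekeeping lysosomal phosphatase, had 13.7 and 14.0 FPKM in the ferret and 32.3 and 31.3 in the mouse, a log2 difference of -1.14 that fell short of a call under both other scalings (-0.77 and -0.75). Lipa, the acid lipase that frees cholesterol from its esters, had 39.4 and 38.9 FPKM against 64.6 and 69.4, a log2 difference of -0.76. Ppt1, the thioesterase that removes palmitate from proteins, had 86.1 and 87.9 FPKM against 105 and 110. Its log2 difference of -0.30 changed sign after rescaling (0.09) and quantile normalization (0.06), as did those of Ctsf, Manba and Glb1.

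Both genes with a regulatory or supporting role were called lower. Tfeb, the transcription factor that induces lysosomal genes, had 1.45 and 1.81 FPKM in the ferret and 7.27 and 6.90 FPKM in the mouse libraries. The mouse libraries were the higher ones, by 4.35-fold on average and a log2 difference of -1.62 (standard error 0.088, limma adjusted p = 5.65e-08). Mouse Tfeb occupies bases 47737030 to 47792419 of chromosome 17 in GRCm38 (plus strand). Grn, which encodes progranulin, a secreted protein that reaches lysosomes with prosaposin, had 59.4 and 64.9 FPKM in the ferret and 162 and 160 FPKM in the mouse. Its log2 difference was -1.36 (standard error 0.062, limma adjusted p = 1.62e-08), and after rescaling it was -0.98 and was not called.

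**Figure D5:**
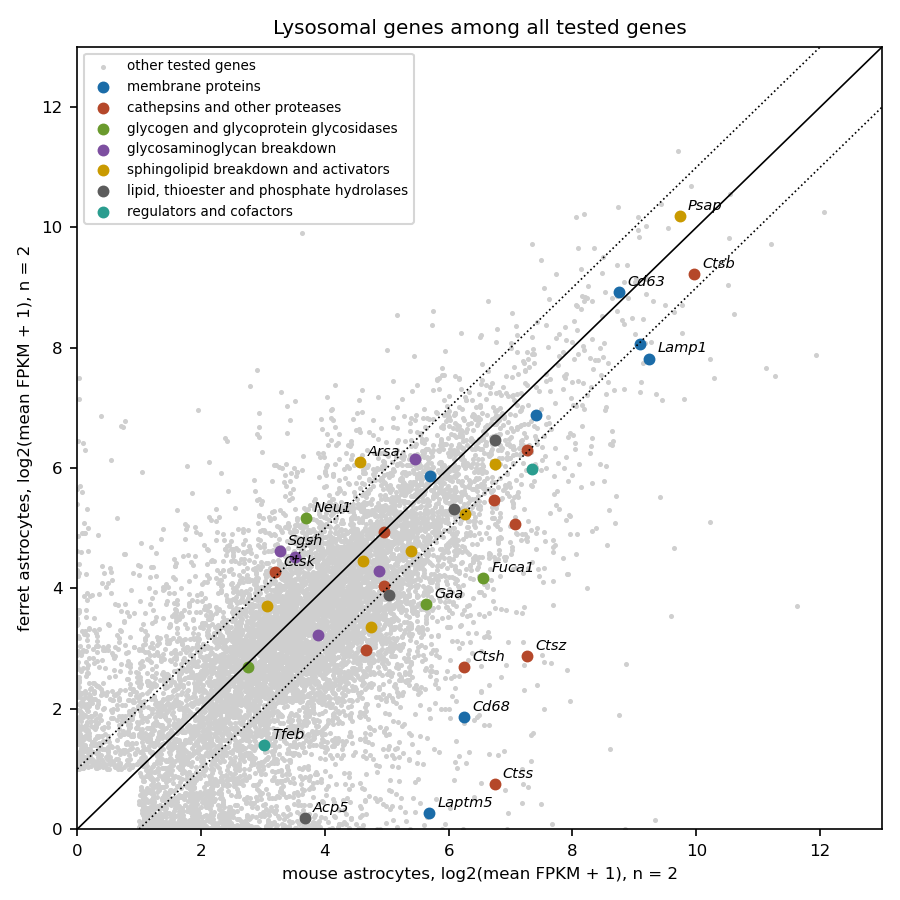
Mean level in ferret (y axis) against mouse astrocytes (x axis) on the log2(FPKM + 1) scale, with the 10204 tested genes in grey and the 41 lysosomal genes coloured by role. The solid line marks equal levels and the dotted lines a log2 difference of 1, and Ctsz, Ctsh, Cd68, Ctss, Laptm5 and Acp5 are the lysosomal genes farthest below the line of equal levels.

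Genes that build, acidify and supply the lysosome were given by 6 further lists, to be read against the same 13.1% of all tested genes called higher and 30.1% called lower. Of 14 subunits and accessory proteins of the vacuolar proton pump, 1 was called higher and 2 were called lower, with a median log2 difference of -0.06. Atp6v1d, a subunit of the central stalk, had a mean of 156 FPKM in ferret and 52.7 in mouse astrocytes (log2 difference 1.55). Atp6v0a2, a membrane subunit, had 14.4 against 47.3 FPKM (-1.65), and Atp6v1h had 26.5 against 63.7 FPKM (-1.23). The 11 other subunits were not called.

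Of 10 genes for mannose 6-phosphate tagging and sorting, 1 was called higher and 1 lower. Gga2, an adaptor that packs the tag receptors into vesicles at the Golgi, stood at a mean of 111 FPKM in the ferret and 9.84 in the mouse, a log2 difference of 3.37 (limma adjusted p = 7.63e-11), and Sort1, a sorting receptor that also carries progranulin and prosaposin, at 9.21 and 39.5 FPKM (-1.99). Gnptab, the transferase that starts the tag, reached 1.00 (29.7 against 14.4 FPKM) without a call, and the tag receptors Igf2r and M6pr differed by 0.49 and -0.15. Of 23 other lysosomal enzymes and transporters, 3 were called higher and 7 lower. Npc2, the soluble cholesterol carrier of the lysosome, had a mean of 437 FPKM in the ferret and 98.9 in the mouse (log2 difference 2.13), and the membrane protein Npc1, which takes cholesterol over from it, had 13.6 and 16.8 FPKM (-0.28). Dpp7, a dipeptidyl peptidase, had 82.5 against 19.7 FPKM (2.02), and Ifi30, a thiol reductase of antigen-presenting cells, had 8.99 against 36.0 FPKM (-1.89).

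Cystatins inhibit cysteine cathepsins. Of 3 inhibitors tested, 1 was called higher and 2 lower. Cst3, the secreted cystatin C, had a mean of 235 FPKM in the ferret and 3892 in the mouse, a log2 difference of -4.04 (limma adjusted p = 3.64e-11), while Cstb, the cytosolic cystatin B, had 844 in the ferret and 162 in the mouse, a log2 difference of 2.37 (limma adjusted p = 3.84e-09). Cst6, counted among the 2 lower calls, entered through its mouse values alone and therefore could only be lower in the ferret. It stood at 0.224 and 8.15 FPKM (-2.90). The ratios of Ctsb to the more abundant inhibitors ran in opposite directions. Ctsb was at 2.49 and 2.59 times the level of Cst3 in the ferret pair and at 0.265 and 0.248 times in the mouse pair, but at 0.748 and 0.674 times the level of Cstb in the ferret pair against 5.81 and 6.52 times in the mouse pair.

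Among 11 genes of the Tfeb family and of the machinery that docks the growth regulator mTORC1 on lysosomes, 1 was called higher and 2 lower. Lamtor4 had 85.6 against 34.9 FPKM (log2 difference 1.27) and Lamtor5 16.8 against 68.6 FPKM (-1.97), although both encode subunits of the same Ragulator scaffold. Tfec, a Tfeb relative of macrophages counted among the 2 lower calls, entered through its mouse values alone and therefore could only be lower in the ferret. It stood at 0.0379 and 1.56 FPKM (-1.30), and the more abundant relative Tfe3 had 17.8 and 20.6 FPKM (-0.20). Of 10 genes for tethering and fusion of lysosomes, 0 were called higher and 1 lower, the syntaxin Stx7 with 24.3 against 58.6 FPKM (-1.24).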

How the data were processed

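RNA-seq of cultured astrocytes was analysed from 4 libraries, 2 per species. As described by the study's methods, the authors aligned paired-end reads with STAR (version 2.7.0f) to each species' Ensembl genome (MusPutFur1.0 for ferret, GRCm38 for mouse) and deposited FPKM per gene from Cufflinks (version 2.2.1). Libraries were strand-specific, and whether strand was used in quantification is not given in the sources used here. The deposited files analysed here give FPKM without read counts, and no counting interval is given. The paper lists read counts and gene lengths in its supplement, and these were not used here.

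Symbols were matched without regard to case, and a symbol with several rows kept the row with the highest species mean. Values on the log2(FPKM + 1) scale were compared with limma (version 3.58.1, R 4.3.3, empirical Bayes with trend) over 10204 genes, with Benjamini-Hochberg adjustment over all of them. The fit was tested on simulated data. The lysosomal genes, the other gene lists and their grouping by role were chosen with earlier results of these data known. Every lysosomal gene is named, and up to 3 called genes with the widest differences from each further list, with other genes of those lists (Gnptab, Igf2r, M6pr, Npc1, Tfe3) named after their values were seen. Mouse positions and exon overlaps are from GENCODE M21 on GRCm38, an annotation release other than the authors'. A ferret genome was not used. The gene pairs of the ratios were picked with their values known. Alternatives were another pseudocount and filter, other scalings, summed rows of a symbol, a replicate block and leaving out each library.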

Additional observations from a re-analysis of the deposited data

How the results depend on the processing

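Arsa, Neu1 and Sgsh stayed called higher, and Lamp1, Ctsc, Ctsh, Ctsz, Lgmn, Gaa, Fuca1 and Tfeb stayed called lower, under every alternative run: a pseudocount of 0.1, no filter or a minimum mean of 5 FPKM, 2 other scalings, summed rows of a symbol, the replicate block and each library left out. After rescaling to the mean library sum and after quantile normalization, 7 of the 38 genes were called higher in both cases, with medians of -0.36 and -0.40 for the list. Over all tested genes, 1967 and 2110 were then called higher and 2215 and 2090 lower, against 1336 and 3069 as deposited, so the whole table moved to near balance as well. The share of higher genes among the called lysosomal genes was 41.2% under either scaling and 21.1% as deposited. Without Acp5, an alternative added after the data were seen, 14 were called lower and the median was -0.74. With the wider phagocyte set aside, 9 were called lower and the median was -0.67.

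Among the further lists, counts moved by over 1.5 times as follows. Under both scalings, 2 proton pump genes were called higher and 1 lower, 2 tagging and sorting genes higher, 5 other lysosomal genes higher and 3 lower, 2 docking genes higher, and 0 tethering genes lower. With a pseudocount of 0.1, 2 tagging and sorting genes were called higher, and with each library left out 1 to 2. With a minimum mean of 5 FPKM, 1 docking gene was called lower.

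The replicate numbers come from the labels alone. Deviations of same-numbered libraries were uncorrelated across tested genes (r = 0.01), and with the replicate block 4 lysosomal genes were called higher and 15 lower, as without it.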

Other observations

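Of the 7 listed genes that were not analysed here in the ferret, several were prominent in mouse astrocytes. Ctsd, the aspartic protease cathepsin D, had 1748 and 1830 FPKM in the mouse libraries, more than any of the 41 genes compared, and Ctsl, cathepsin L, had 529 and 536 FPKM. Hexa, the hexosaminidase subunit deficient in Tay-Sachs disease, had 123 and 125 FPKM. Man2b1, a mannosidase, stood at 35.7 and 34.9 FPKM, Ids, the iduronate sulfatase, at 26.6 and 30.4, the cation channel gene Mcoln1 at 22.7 and 23.4 and the membrane protein gene Cln3 at 16.5 and 14.9. In the GENCODE annotation, 34.4% of the exonic bases of Ctsd overlap another gene model on the same strand.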
